A study of Mus musculus with 8 samples.

Results

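The genes described here are 10 components of the transforming growth factor beta (TGF-beta) pathway: the ligands Tgfb1, Tgfb2 and Tgfb3, the receptors Tgfbr1, Tgfbr2 and Tgfbr3, and the signal transducers Smad2, Smad3, Smad4 and Smad7. They were chosen by gene symbol, as 10 of the 31894 genes in the count table, and all 10 were found. Bulk mRNA sequencing was performed on E-cadHI and E-cadLO tumor cells that were sorted by flow cytometry from the brain metastases of 4 mice, numbered 57, 58, 67 and 70, with 1 library of each population per mouse. In every library the cells came from tumors grown in the brain after intracranial injection of organoids of a PyMT mammary tumor line, in which the polyoma middle T oncogene is driven by a mouse mammary tumor virus promoter and E-cadherin carries a cyan fluorescent tag (E-cad-mCFP). The labels give the strain FVB, the genotype wild type, the tissue brain metastasis tumor and the disease state breast cancer for both groups. Among the labels, only E-cadherin status (Ecad high or Ecad low) differs between the groups. No age and no treatment are given in the labels. The line had been enriched for growth in the brain by serial transplantation, and the purity of the sort was checked by the study on CFP-positive cells only.

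TGF-beta ligands are secreted in a latent form and are released in the matrix. An active ligand binds the type II receptor Tgfbr2, which recruits and phosphorylates the type I receptor Tgfbr1, while the co-receptor Tgfbr3 (betaglycan) presents ligand, Tgfb2 in particular. Tgfbr1 phosphorylates Smad2 and Smad3, which enter the nucleus with Smad4 and induce target genes, among them Smad7, whose product blocks the receptor and so closes a feedback loop. In carcinomas the pathway is known as an inducer of epithelial-mesenchymal transition, the loss of E-cadherin included, and in the brain it is known for its part in the identity of microglia.

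Total counts ranged from 9102781 to 15769200 per library, and 9 of the 10 genes passed the filter on low counts that left 13598 genes for the test. Levels are given as CPM, which are counts scaled to the library size after normalization for library composition, always in the order of mice 57, 58, 67 and 70. Cdh1, which encodes E-cadherin, was at 114, 132, 93.5 and 108 CPM in E-cadHI cells and at 71.6, 181, 84.5 and 59.2 CPM in E-cadLO cells. Its groups overlapped, since mouse 58 had more Cdh1 in the E-cadLO library, so the RNA did not separate the populations by label in that mouse. Epcam, another epithelial marker, was at 1134 to 1344 CPM in E-cadHI and at 290 to 1101 CPM in E-cadLO libraries. Its groups did not overlap, as for 4.20% of all tested genes in that direction. Among 8 markers of the tumor epithelium, Epcam was the only 1 that was lower in the E-cadLO library of every mouse. Of these 8, 0, 7, 4 and 1 were higher in the E-cadLO library of mice 57, 58, 67 and 70.

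The libraries also held RNA of markers of other cell types, and several of these lists differed between the populations. All 8 markers of microglia and macrophages were higher in the E-cadLO library of every mouse. Their summed level was 28.7, 54.0, 60.6 and 120 CPM in E-cadHI cells and 91.7, 126, 328 and 450 CPM in E-cadLO cells, so that each mouse differed in the same direction while the groups overlapped. The 8 fibroblast markers summed to 7.58 to 21.8 CPM in E-cadHI cells, to between 24.5 and 47.2 CPM in the E-cadLO libraries of mice 58, 67 and 70, and to 1657 CPM in the E-cadLO library of mouse 57, which stood apart. The 8 oligodendrocyte markers summed to 554 to 8611 CPM and 1316 to 34470 CPM, the 8 astrocyte markers to 1151 to 3433 CPM and 726 to 9498 CPM, and the 8 neuronal markers to 31.1 to 128 CPM and 49.3 to 406 CPM, in E-cadHI and E-cadLO libraries respectively. The 8 endothelial markers were at 41.7 to 76.6 CPM and 57.8 to 103 CPM, the 6 neutrophil markers at 15.4 to 23.8 CPM and 6.84 to 19.1 CPM, and the 6 T cell markers at 0 to 1.58 CPM and 0 to 7.97 CPM. Some sums were mostly a single gene. In the E-cadHI library of mouse 57, S100a8 was at 22.9 of the 23.1 CPM of the neutrophil list. Flt1 was at 40.4 of the 41.9 endothelial CPM there, and Aldoc at 1005 of the 1151 astrocyte CPM. In this mouse the astrocyte sum fell to 726 CPM in the E-cadLO library, while 6 of the 8 markers were higher. The sums of the fibroblast, oligodendrocyte, neuronal and endothelial lists were also higher in the E-cadLO library of each mouse, though not every marker of these lists was. No marker of any list was at 0 in all libraries of a group, although Cd3d and Cd3e were at 0 in 5 of the 8 libraries. The 8 markers of the tumor epithelium summed to 7360 to 10109 CPM in E-cadHI and 5463 to 13912 CPM in E-cadLO cells. In bulk libraries such as these, fewer cells of a type and less RNA per cell cannot be told apart. What part these other cell types had in the values below was not tested, except that results are given with and without mouse 57 where it matters.

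**Figure D1:**
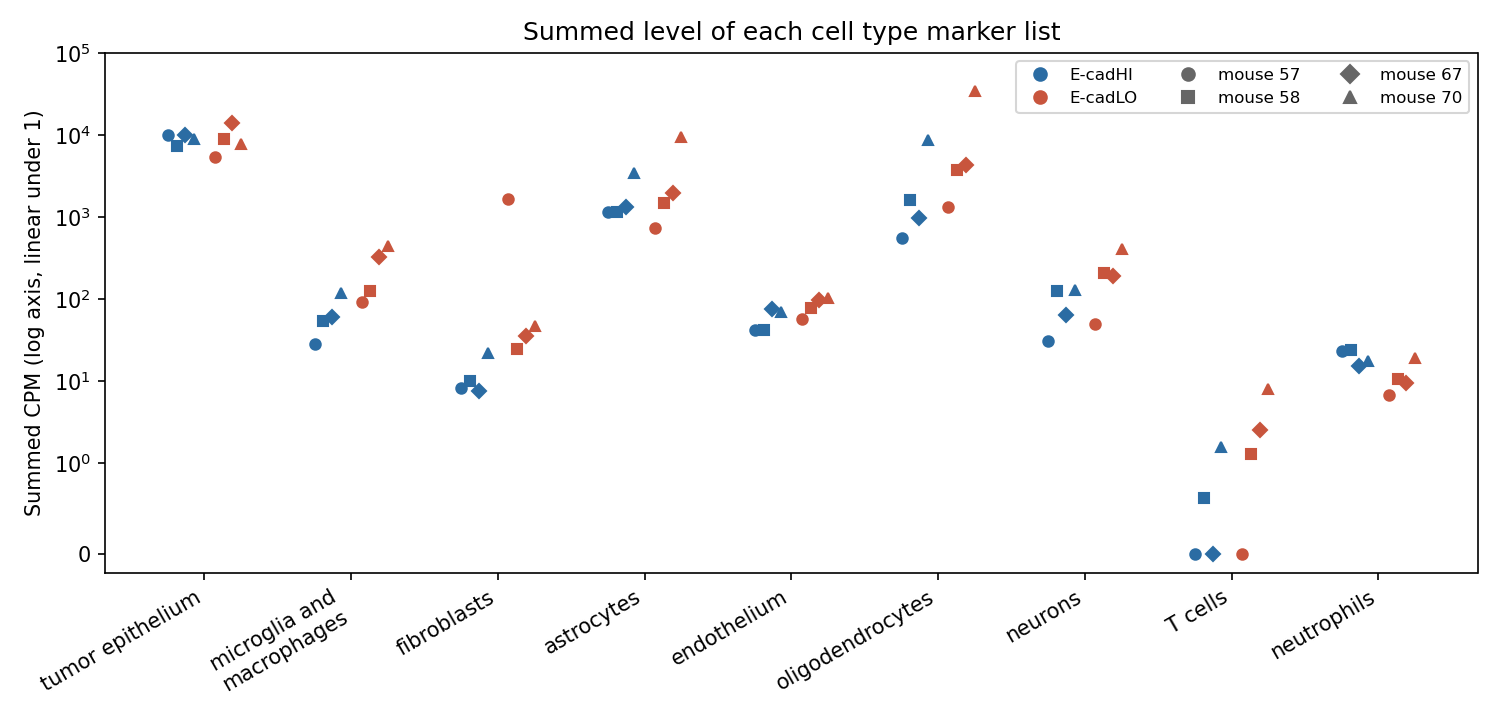
Summed level of 9 lists of cell type markers in the 8 libraries, in CPM on an axis that is logarithmic above 1 and linear below, with blue for E-cadHI, red for E-cadLO and a symbol for each mouse. The fibroblast list of the E-cadLO library of mouse 57, at 1657 CPM, lies far above the other E-cadLO libraries. The list of microglia and macrophages is higher in the E-cadLO library of each mouse, as are the fibroblast, oligodendrocyte, neuronal and endothelial lists.

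The ligands were dominated by Tgfb3 and Tgfb2, and Tgfb1 was close to the limit of detection in both populations. The sequences that lie 250 bases before the annotated start are shown for Tgfb1 and Tgfb2, the ligands with the lowest level and with a far higher one, and for Tgfbr1, the receptor whose populations did not overlap. They are from RefSeq (build GRCm38.p6), where 5 of the 10 genes had a window. Tgfb1 lies at chr7:25687002-25705077 on the plus strand, with the printed window at chr7:25686752-25687001. Tgfb2 lies at chr1:186622792-186705989 on the minus strand, with its window at chr1:186705990-186706239. Tgfbr1 lies at chr4:47353222-47414931 on the plus strand, with the printed window at chr4:47352972-47353221 and another, not printed, at chr4:47385966-47386215. Capitals mark motifs that were searched on both strands and do not overlap in these windows. The GC box was searched as the letters GGGCGG, which can stand on either strand. For the promoter element that positions transcription in many genes, the TATA box, the letters were TATAAA. The motif bound by helix-loop-helix factors, the E-box, was searched as CACGTG.
Tgfb1: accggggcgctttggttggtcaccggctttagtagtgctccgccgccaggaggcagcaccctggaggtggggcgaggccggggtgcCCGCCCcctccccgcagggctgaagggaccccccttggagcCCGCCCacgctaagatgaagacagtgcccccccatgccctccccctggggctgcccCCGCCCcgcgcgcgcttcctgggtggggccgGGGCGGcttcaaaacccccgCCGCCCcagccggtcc
Tgfb2: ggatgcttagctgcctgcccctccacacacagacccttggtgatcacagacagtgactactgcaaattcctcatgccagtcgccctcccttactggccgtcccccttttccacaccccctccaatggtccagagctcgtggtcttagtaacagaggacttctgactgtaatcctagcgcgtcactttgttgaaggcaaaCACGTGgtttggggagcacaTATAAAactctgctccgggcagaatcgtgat
Tgfbr1: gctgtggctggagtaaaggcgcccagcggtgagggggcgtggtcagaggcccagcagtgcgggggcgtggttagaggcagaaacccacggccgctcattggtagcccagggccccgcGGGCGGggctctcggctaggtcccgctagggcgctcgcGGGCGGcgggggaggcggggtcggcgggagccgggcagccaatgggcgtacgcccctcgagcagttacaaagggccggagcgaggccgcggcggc
The Tgfb1 window had 5 GC boxes and neither a TATA box nor an E-box, and 75.2% of its bases were G or C. In the Tgfb2 window there were 1 TATA box and 1 E-box and no GC box, with 53.6% G or C. The printed Tgfbr1 window held 2 GC boxes and neither of the others, with 74.8% G or C. The window of Tgfbr1 that is not printed held none of these motifs, with 52.8% G or C. Of all 32851 windows of this length, 32.7% held a GC box, 12.4% a TATA box and 6.02% an E-box, and the median content of G and C was 52.4%. The letters CAGAC, a sequence that Smad proteins can bind, occurred 2 times in the Tgfb2 window, not in the other printed windows, and in 42.2% of all windows. They occurred 1 time in the Tgfbr1 window that is not printed. These matches describe the letters only and were not tested for binding.

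Tgfb1, the ligand best known from immune cells and platelets, had 6, 12, 3 and 13 counts in E-cadHI libraries and 1, 3, 19 and 5 counts in E-cadLO libraries. These correspond to 0.418, 0.922, 0.223 and 1.14 CPM and to 0.0743, 0.349, 1.28 and 0.349 CPM, while a floor of 3 counts lies between 0.190 and 0.330 CPM, depending on the library. Tgfb1 was lower in the E-cadLO library of mice 57, 58 and 70 and higher in that of mouse 67, and the groups overlapped. It did not pass the filter on low counts of edgeR. DESeq2, which was run without that filter, gave a log2 fold change of −0.37 (adjusted p = 0.890), or −0.86 with the mouse as a block (adjusted p = 0.728), and no fit that kept the gene had an unadjusted p under 0.477. The 95% Poisson intervals of the lowest and highest library, 0.0253 to 5.57 counts and 11.4 to 29.7 counts, cover counting error only. No difference between the populations was detectable in these counts. Whether reads of Tgfb1 were assigned elsewhere was not tested, since the treatment of reads that match several genes and of strand is not given in the sources used here, and this holds for its share of the ligands too. No other annotated gene overlaps Tgfb1, and its upstream neighbor B9d2, which ends 443 bases before it, had 96 to 353 counts in the same libraries. The E-cadLO libraries of mice 67 and 70 had 19 and 5 counts of Tgfb1. Their markers of microglia and macrophages summed to 328 and 450 CPM, and the part of these cells was not tested.

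Tgfb2 was at 119, 114, 109 and 78.8 CPM in E-cadHI cells and at 98.5, 78.9, 88.1 and 68.8 CPM in E-cadLO cells. It was lower in the E-cadLO library of each of the 4 mice, although the groups overlapped because mouse 70 was low in both populations. The fitted log2 fold change was −0.33 (SE 0.18, 95% interval −0.74 to 0.07, adjusted p = 0.421, edgeR), so a decrease was not called. Within the mice, the log2 ratios were −0.28, −0.53, −0.31 and −0.19.

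Tgfb3 (chr12:86056744-86079041, minus strand) had the highest level per length of the 10 genes, as given below, with 248, 206, 262 and 132 CPM in E-cadHI cells and 160, 193, 99.2 and 76.6 CPM in E-cadLO cells. It too was lower in the E-cadLO library of every mouse with overlapping groups, and mouse 58 differed least, with a log2 ratio of −0.10 against −0.63, −1.39 and −0.78 in mice 57, 67 and 70. The fitted log2 fold change was −0.68 (SE 0.32, interval −1.40 to 0.04, adjusted p = 0.371), a decrease that edgeR did not call. With the mouse as a block the estimate was −0.73 (SE 0.22) at an unadjusted p of 0.0118 and an adjusted p of 0.172, and DESeq2 with the block gave an adjusted p of 0.0502. Over 22 alternative fits the adjusted p ranged from 0.0502 to 0.753, and all 22 had the same direction. Ttll5, a gene on the opposite strand that overlaps Tgfb3, had up to 491 counts, and whether counting used the strand is not given in the sources used here.

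Levels of different genes can be compared only per length, here as CPM per kilobase of the gene's merged exons. Per kilobase, the 3 ligands summed to 94.0, 80.8, 96.2 and 52.9 in E-cadHI libraries and to 64.4, 70.6, 44.8 and 34.6 in E-cadLO libraries. The sum was lower in the E-cadLO library of each mouse, and the groups overlapped. Of this sum, Tgfb3 accounted for 76.9% ± 2.87 (SD, n = 4) in E-cadHI and 71.3% ± 7.27 in E-cadLO cells, and Tgfb2 for 22.9% ± 2.71 and 28.5% ± 7.14. Tgfb1 made up 0.197% ± 0.172 and 0.222% ± 0.241. The differences in the shares of Tgfb3 and Tgfb2 were larger than the SD of E-cadHI but smaller than that of E-cadLO cells, the difference for Tgfb1 was smaller than both, and no test was run on them. Tgfb3 came first and Tgfb2 second in all 8 libraries.

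**Figure D2:**
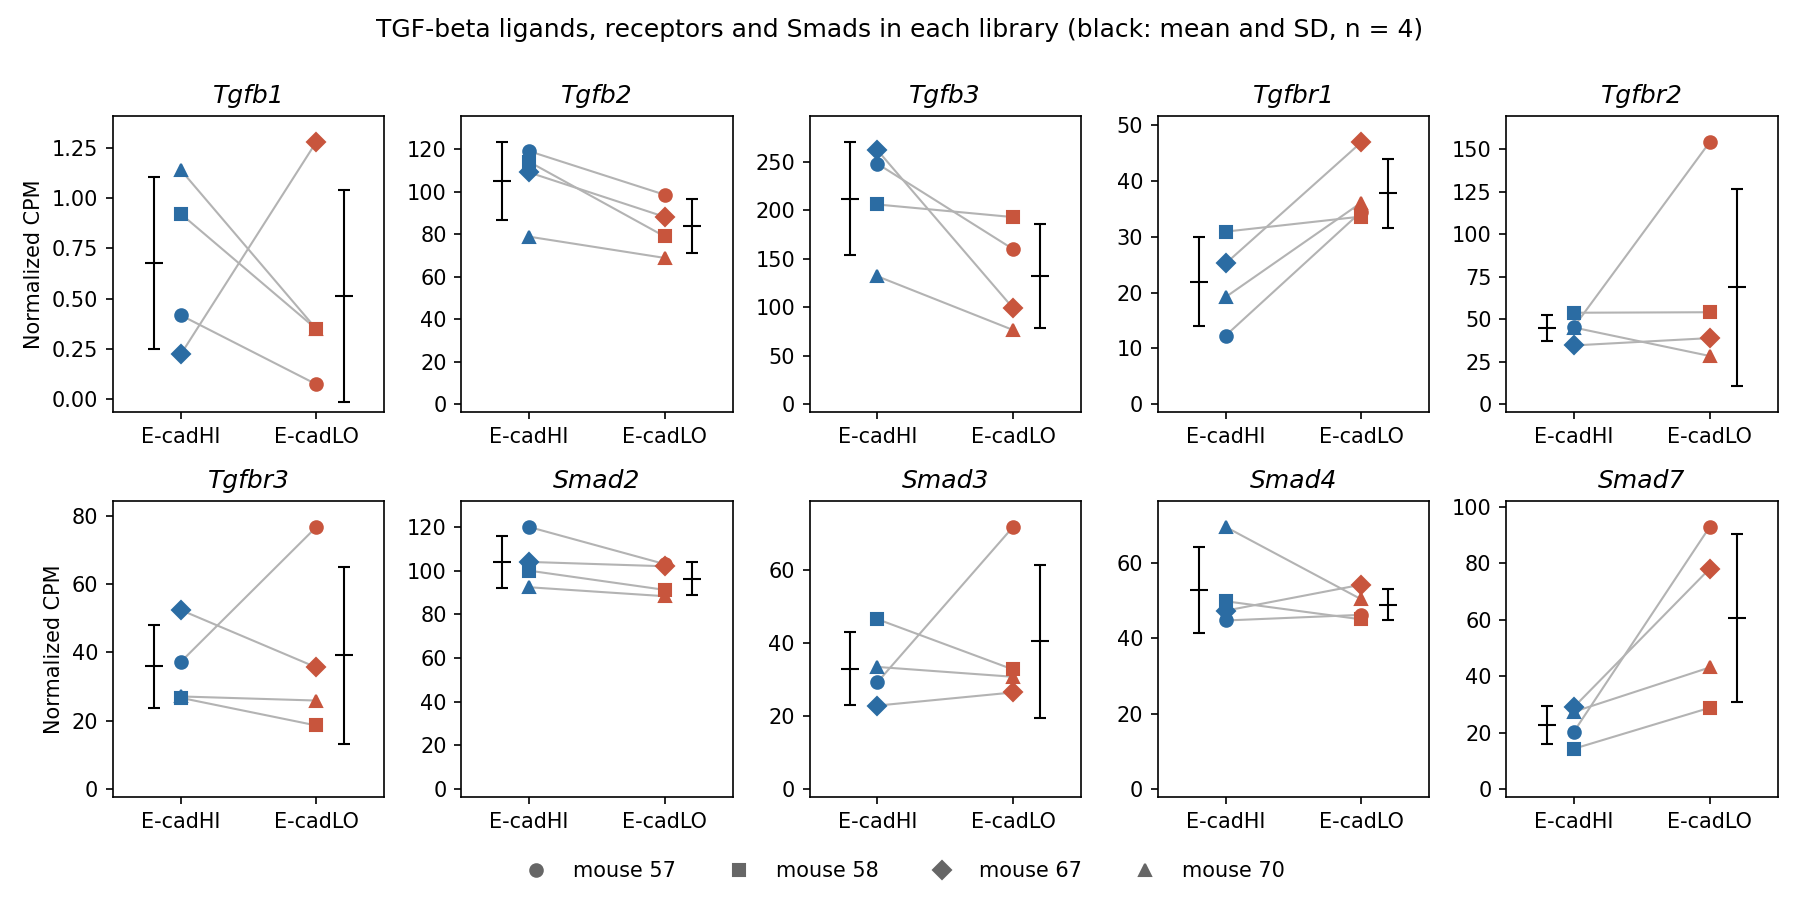
Normalized CPM of the 10 genes, with 1 panel per gene and its own linear axis, E-cadHI libraries in blue, E-cadLO libraries in red, a gray line joining the populations of a mouse, and black bars for the mean and SD of 4 libraries. Smad7 and Tgfbr1 are higher in the E-cadLO library of every mouse, Tgfb2, Tgfb3 and Smad2 are lower in every mouse, and in Tgfbr2, Tgfbr3 and Smad3 the E-cadLO library of mouse 57 lies above all others.

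Among the receptors, Tgfbr1 was higher in E-cadLO cells of each mouse, while Tgfbr2 and Tgfbr3 had high values in the E-cadLO library of mouse 57 alone. Tgfbr1, the type I receptor kinase that phosphorylates Smad2 and Smad3, was at 12.3, 30.9, 25.2 and 19.2 CPM in E-cadHI cells and at 34.5, 33.6, 46.9 and 36.1 CPM in E-cadLO cells. Every E-cadLO library lay above every E-cadHI library, with mouse 58 nearly level at a log2 ratio of 0.12 and the others at 0.88 to 1.45. The fitted log2 fold change was 0.79 (1.73-fold, SE 0.29, interval 0.15 to 1.43) with an unadjusted p of 0.0213 and an adjusted p of 0.305. Hence the increase was not called by edgeR, nor with the mouse as a block (0.85, adjusted p = 0.162) or by DESeq2 without it (adjusted p = 0.158). DESeq2 with the block called it at an adjusted p of 0.0358, and the adjusted p ranged from 0.0358 to 0.680 over the 22 alternatives, all of which kept the direction.

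Tgfbr2 (chr9:116084293-116175360), the type II receptor that binds ligand, was at 45.6, 53.8, 34.6 and 45.1 CPM in E-cadHI cells and at 154, 54.1, 38.9 and 28.4 CPM in E-cadLO cells. The E-cadLO library of mouse 57 was far above the rest, and the other 3, at 28.4 to 54.1 CPM, overlapped with the 34.6 to 53.8 CPM of E-cadHI cells. The log2 fold change of 0.62 (SE 0.48, interval −0.45 to 1.69, adjusted p = 0.534) turned to −0.15 when mouse 57 was left out (adjusted p = 0.901). In that same library the fibroblast markers summed to 1657 CPM, Pdgfrb reached 147 CPM and the part of these cells in the level of Tgfbr2 was not tested.

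Tgfbr3 (chr5:107106570-107289629), the co-receptor without a kinase of its own, was at 37.2, 26.7, 52.4 and 27.1 CPM in E-cadHI and at 76.7, 18.6, 35.6 and 25.9 CPM in E-cadLO cells. It was higher in the E-cadLO library of mouse 57 and lower in that of the other 3 mice. Its log2 fold change was 0.13 (SE 0.43, interval −0.83 to 1.09, adjusted p = 0.896), −0.43 without mouse 57 and −0.03 with the mouse as a block. The ratio of Tgfbr2 to Tgfbr1 per length was 2.95, 1.39, 1.09 and 1.87 in E-cadHI libraries and 3.56, 1.28, 0.662 and 0.627 in E-cadLO libraries. Tgfbr2 thus lay above Tgfbr1 in 6 of 8 libraries and below it in the E-cadLO libraries of mice 67 and 70, and the groups overlapped.

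For the receptor-activated Smads and their partner Smad4, no difference beyond the spread between libraries was found. Smad2 (chr18:76241580-76305731) was at 120, 100, 104 and 92.4 CPM in E-cadHI and at 103, 91.2, 102 and 88.3 CPM in E-cadLO cells. All 4 mice were lower in the E-cadLO library, by log2 ratios of only −0.22, −0.14, −0.02 and −0.07, and the groups overlapped. The log2 fold change of −0.11 (SE 0.14, adjusted p = 0.705) had an interval of −0.43 to 0.21, the narrowest among the 9 tested genes.

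Smad3 (chr9:63646767-63757994), the other receptor-activated Smad of this pathway, was at 29.3, 46.6, 22.9 and 33.5 CPM in E-cadHI and at 71.9, 32.8, 26.5 and 30.8 CPM in E-cadLO cells. The E-cadLO library of mouse 57 was again the highest, and the other E-cadLO libraries lay within the range of E-cadHI cells. Its log2 fold change was 0.29 (SE 0.35, interval −0.50 to 1.09, adjusted p = 0.689) and −0.21 without mouse 57. Smad4 (chr18:73639009-73703780), which joins the activated Smads, was at 44.7, 49.8, 47.3 and 69.5 CPM and at 46.2, 45.0, 54.2 and 50.3 CPM. The populations overlapped, mice 57 and 67 were slightly higher and mice 58 and 70 lower in the E-cadLO library, and the log2 fold change was −0.11 (SE 0.18, interval −0.51 to 0.29, adjusted p = 0.777).

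Smad7 (chr18:75367529-75395935), the inhibitory Smad that is itself a target gene of the pathway, showed the largest difference of the 9 tested genes. It was at 20.4, 14.3, 29.1 and 27.4 CPM in E-cadHI cells and at 92.9, 28.8, 78.1 and 43.1 CPM in E-cadLO cells. Each mouse was higher in its E-cadLO library, with log2 ratios of 2.16, 0.99, 1.41 and 0.64, and the groups overlapped only through mouse 58, whose E-cadLO value lay just under the E-cadHI value of mouse 67. The fitted log2 fold change was 1.41 (2.66-fold, SE 0.38, interval 0.55 to 2.28) at an unadjusted p of 0.00472 and an adjusted p of 0.268, so edgeR did not call it. With the mouse as a block it was 1.32 (SE 0.27) at an adjusted p of 0.0789. DESeq2 called Smad7 both without the block (adjusted p = 0.0241) and with it (adjusted p = 4.1e-04). The increase had the same direction in all 22 alternatives and was called in 3 of them, with an adjusted p from 4.1e-04 to 0.680. The third call came from the block without mouse 57, at a log2 fold change of 1.01 (adjusted p = 0.0371). That fit was added after the data were seen. Without mouse 57 and without the block, edgeR gave a log2 fold change of 1.06 and did not call Smad7. The direction thus did not rest on mouse 57. The markers of microglia and macrophages were also higher in the E-cadLO library of all 4 mice. The sums of the fibroblast, oligodendrocyte, neuronal and endothelial lists were higher in these libraries too. The E-cadLO library with the most Smad7 was that of mouse 57. Among the E-cadLO libraries it had the lowest sum of the microglia and macrophage markers (91.7 CPM) and the highest of the fibroblast markers. The part of these cells in the level of Smad7 was not tested.

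Set against Smad2 per length, Smad7 amounted to 0.330, 0.277, 0.547 and 0.576 in E-cadHI libraries and to 1.75, 0.614, 1.48 and 0.947 in E-cadLO libraries. Every E-cadLO library was above every E-cadHI library in this ratio, and in mice 57 and 67 Smad7 exceeded Smad2. The nearest libraries of the groups were at 0.614 and 0.576, and the CPM of Smad7 alone overlapped. Smad2 was lower in the E-cadLO library of every mouse, and how often such ratios separate the groups was not computed. The level of Smad7 per kilobase was 5.05 ± 1.51 in E-cadHI and 13.4 ± 6.59 CPM in E-cadLO cells (SD, n = 4).

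**Figure D3:**
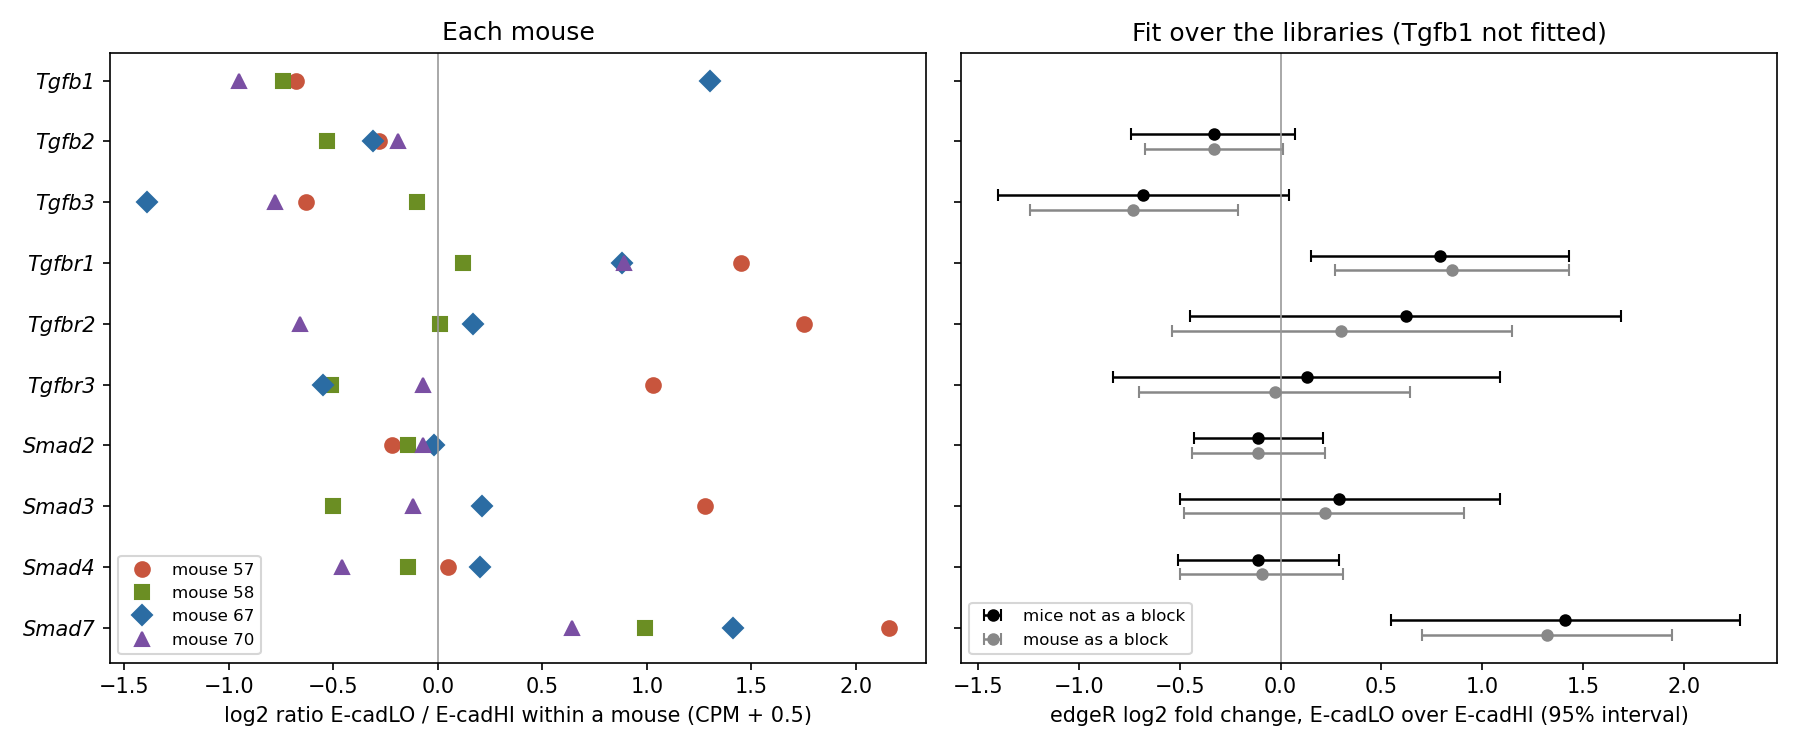
Differences between the populations for the 10 genes, as log2 ratios of E-cadLO over E-cadHI within each mouse (left, a symbol and color per mouse) and as log2 fold changes fitted by edgeR with 95% intervals (right, black without and gray with the mouse as a block). The intervals of Smad7 and Tgfbr1 lie above 0 in both fits, that of Tgfb3 lies below 0 only with the block, and Tgfb1 did not pass the filter on low counts.

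Counted over the genes, none of the 9 tested passed an adjusted p of 0.05 in edgeR in either direction, as was the case for all 13598 genes (0% called higher and 0% called lower). At an unadjusted p under 0.05, 2 of 9 were higher in E-cadLO cells, Smad7 and Tgfbr1, where 8.16% of all tested genes were higher, and 0 of 9 were lower, where 5.81% were. When mouse 67 or mouse 70 was left out, or only the E-cadLO library of the first or the E-cadHI library of the second, Smad7 alone was higher at this level. Tgfb3 was lower at this level without mouse 58, without its E-cadLO library or without mouse 70, Tgfb2 without the E-cadLO library of mouse 57, and both without the E-cadHI library of mouse 70. The share of all genes was not computed for these fits with a mouse or library left out. With the mouse as a block, none of the 9 passed the adjusted threshold either, with 0.728% of all genes called higher and 0% called lower. At an unadjusted p under 0.05 the block put 2 of 9 among the higher genes (Smad7 and Tgfbr1, against 12.3% of all genes) and 1 of 9 among the lower (Tgfb3, against 7.33%). DESeq2 called 1 of the 10 genes higher without the block (Smad7, against 2.48% of all genes) and 2 with it (Smad7 and Tgfbr1, against 6.77%), and called 0 lower in both, against 0.264% and 1.35%. The block without mouse 57, an alternative chosen after the data were seen, called 1 of the 10 genes (Smad7, against 3.06%).

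Direction alone was shared by all 4 mice for 5 of the 9 tested genes. Smad7 and Tgfbr1 were higher in the E-cadLO library of each mouse, as were 16.8% of all tested genes, and Tgfb2, Tgfb3 and Smad2 were lower, as were 14.2%. Populations that did not overlap were found for Tgfbr1 alone among the 9, higher in E-cadLO cells, where 3.90% of all genes were separated in that direction and 4.20% in the other. The median log2 fold change of the 9 genes was 0.13 and that of all tested genes was 0.06. By mouse, the median log2 ratio of the 9 genes was 1.03 in mouse 57 and −0.14, 0.17 and −0.12 in mice 58, 67 and 70, against 0.00 to 0.07 for all tested genes.

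The levels of the 10 genes were also put in order within each population. Per kilobase, Tgfb3 was the highest in E-cadHI cells at 62.6 ± 17.2 CPM (SD, n = 4), and its lowest library lay above the highest of Tgfb2, which followed at 18.2 ± 3.15. Smad4 (14.2 ± 3.04) and Smad2 (11.9 ± 1.34) came next and overlapped with their neighbors. Below a gap, Smad3 (5.96 ± 1.81), Tgfbr3 (5.48 ± 1.84), Tgfbr2 (5.47 ± 0.963), Smad7 (5.05 ± 1.51) and Tgfbr1 (3.35 ± 1.22) overlapped with each other in turn. Tgfb1 was far below all of them at 0.134 ± 0.0848. In E-cadLO cells Tgfb3 was again first at 39.1 ± 15.8 and did not overlap with Tgfb2 at 14.4 ± 2.20, and Smad7 (13.4 ± 6.59) and Smad4 (13.2 ± 1.12) came next by their means. They were followed by Smad2 (10.1 to 11.8 over its libraries), Tgfbr2 (8.42 ± 7.07), Smad3 (7.31 ± 3.81), Tgfbr3 (5.99 ± 3.96), Tgfbr1 (5.79 ± 0.944) and Tgfb1 (0.102 ± 0.105). Much of this order rested on mouse 57. Without its E-cadLO library the mean of Smad7 was 11.1 ± 5.61 (SD, n = 3), under the 13.4 of Smad4, and Tgfbr1 at 5.95 ± 1.08 stood above Smad3 (5.42 ± 0.581), Tgfbr2 (4.94 ± 1.58) and Tgfbr3 (4.08 ± 1.30). Over all 4 E-cadLO libraries the range of Smad7, 6.38 to 20.5, overlapped with those of Tgfb2, Smad4 and Smad2, that of Smad4 lay above that of Smad2, and those of Tgfbr2, Smad3, Tgfbr3 and Tgfbr1 overlapped.

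**Figure D4:**
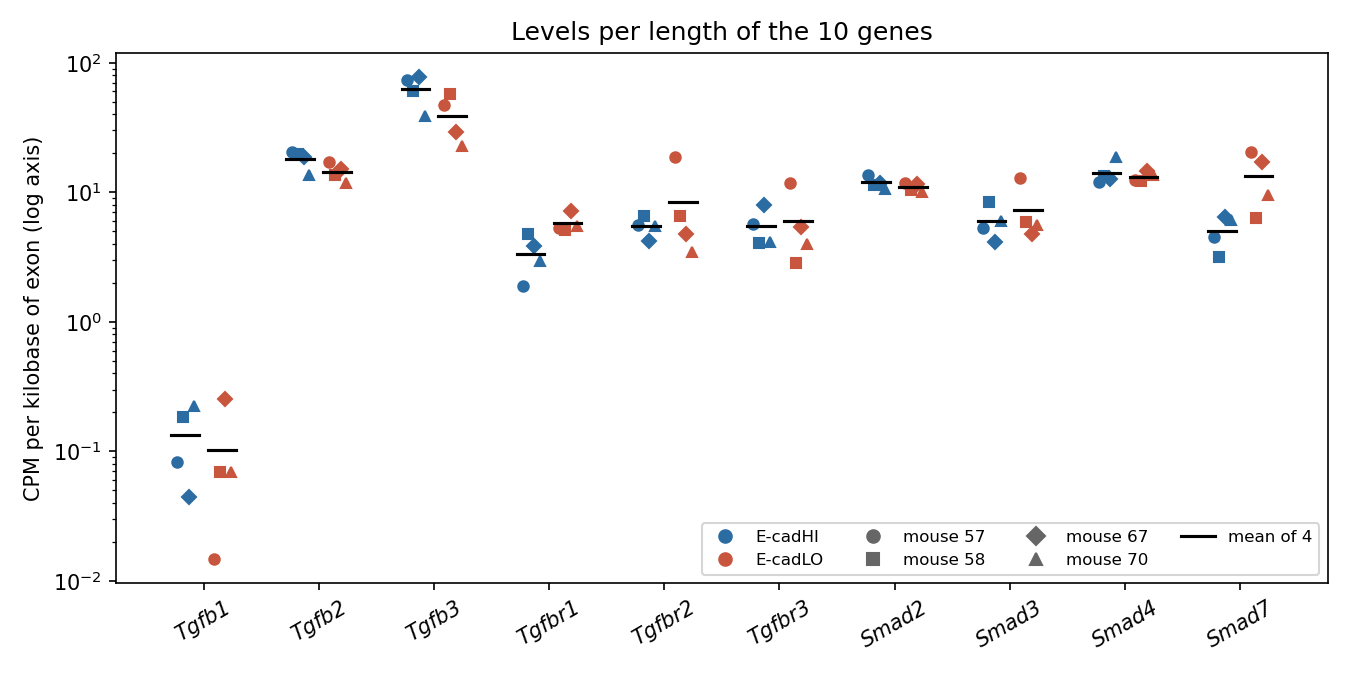
Level of the 10 genes in CPM per kilobase of merged exons on a logarithmic axis, with blue for E-cadHI, red for E-cadLO, a symbol for each mouse and a black line for the mean of 4 libraries. Tgfb3 stands highest and Tgfb1 lowest in both populations, and Smad7 has the clearest upward step, from a mean of 5.05 to 13.4.

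Profiles over the 8 libraries were compared between genes, after centering each on its own mean, by the mean absolute difference of log2 values. The closest profiles to that of Tgfb3 were those of Bik (0.16) and Slc5a8 (0.18), and to that of Tgfb2 those of Tctn1 (0.25) and 4933406J10Rik (0.26). Tgfbr1 was followed most closely by Hectd2 (0.11) and Gm26792 (0.14), and Tgfbr3 by Kdelc2 (0.14) and Ube2cbp (0.17). Nearest to Tgfbr2 were Ltbp1 (0.14), which encodes a binding protein of latent TGF-beta, and Gtf2ird2 (0.14). Ltbp1 was at 81.1, 86.3, 55.0 and 72.7 CPM in E-cadHI and at 348, 71.9, 64.9 and 49.6 CPM in E-cadLO cells, so it was also highest in the E-cadLO library of mouse 57. For Tgfb1, with its 1 to 19 counts, the nearest profiles were those of Pgrmc2 (0.19) and AI606181 (0.21). With 8 libraries and 13598 genes, such nearness is a description only.

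The rest of the pathway was examined in 4 lists with 69 genes in all, of which 62 were tested. None of the 62 passed the adjusted threshold in edgeR in either direction, as was true of every gene tested. Genes that keep the ligand latent or activate it numbered 16, with 14 tested. At an unadjusted p under 0.05, 3 of these were higher (8.16% of all tested genes) and 0 lower (5.81%). Thbs1, which encodes thrombospondin-1, an activator of latent TGF-beta, was at 81.3, 106, 144 and 83.9 CPM in E-cadHI cells and at 432, 259, 292 and 97.1 CPM in E-cadLO cells. It was higher in each mouse, with overlapping groups and a log2 fold change of 1.38 (SE 0.40, adjusted p = 0.275 by edgeR and 0.0321 by DESeq2). Fbn1 and Ltbp2, which encode matrix proteins of the microfibrils that store latent ligand, were at 47.7 and 252 CPM in the E-cadLO library of mouse 57 and at most at 1.33 and 23.6 CPM in the other 7 libraries. Bgn, a matrix proteoglycan, was at 0.0743 to 1.58 CPM in E-cadHI and 0.116 to 4.76 CPM in E-cadLO libraries (log2 fold change 2.28, SE 1.14, adjusted p = 0.390). Without mouse 57, 0 of the 14 were higher at an unadjusted p under 0.05 (5.13% of all genes) and 1 was lower (2.32%). With the block as well, 2 were higher (11.5% of all genes) and 1 was lower (5.73%). The median log2 fold change of this list was 0.84, with median log2 ratios of 1.80 in mouse 57 and −0.01, 0.38 and 0.06 in the other 3 mice.

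None of the 10 other receptors of the family reached an unadjusted p under 0.05 in either direction without the block, where 8.16% of all genes were higher and 5.81% lower. With the block 1 of 10 did (Bmpr1b, where 12.3% of all genes were higher), and their median log2 fold change was 0.11. Bmpr1a, a type I receptor for bone morphogenetic proteins, was at 54.3, 68.2, 74.2 and 64.8 CPM in E-cadHI and at 43.9, 49.0, 56.7 and 56.0 CPM in E-cadLO cells, lower in each mouse with overlapping groups (log2 fold change −0.35, SE 0.16, adjusted p = 0.369). Its relative Bmpr1b and the activin-type receptor Acvr1c were highest in the E-cadLO library of mouse 70, at 25.6 and 8.95 CPM, and were at most at 2.68 CPM in the other libraries. The oligodendrocyte, astrocyte and neuronal markers also had their highest sums in that library, at 34470, 9498 and 406 CPM. So did the markers of microglia and macrophages, endothelium and T cells, at 450, 103 and 7.97 CPM. The fibroblast, neutrophil and tumor epithelium lists had their highest sums in other libraries. The part of all these cells was not tested. Acvrl1, a type I receptor known from endothelium, was at 5.92 to 8.50 CPM in E-cadHI and at 0 to 8.49 CPM in E-cadLO libraries.

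Of the 20 other Smads and regulators, 18 were tested, and the median log2 fold change was −0.02. At an unadjusted p under 0.05, 1 was higher (5.56%, against 8.16% of all tested genes) and 0 were lower (against 5.81%). The gene that was higher was Tgif1, which encodes a corepressor that binds Smads. It was at 178, 135, 167 and 133 CPM in E-cadHI cells and at 262, 219, 330 and 179 CPM in E-cadLO cells. The groups did not overlap, as for 3.90% of all tested genes in that direction. The log2 fold change was 0.69 (SE 0.21, unadjusted p = 0.00920, adjusted p = 0.284 by edgeR and 0.00410 by DESeq2 with the block). Skil, another repressor of Smad activity that the pathway itself induces, was at 129, 147, 190 and 170 CPM and at 310, 156, 375 and 167 CPM. Its E-cadLO libraries were high in mice 57 and 67 and like E-cadHI cells in mice 58 and 70 (log2 fold change 0.66, SE 0.30, adjusted p = 0.358). Bambi, a pseudoreceptor that dampens signaling, was at 33.0 to 45.9 CPM and 27.6 to 43.2 CPM, and Smad1, which serves bone morphogenetic proteins, at 13.1 to 18.1 CPM and 11.1 to 16.5 CPM.

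Most of the tested target genes had higher values in E-cadLO cells. Of 23 genes known to respond to TGF-beta, 20 were tested, and 14 of these were higher and 1 was lower in E-cadLO cells at an unadjusted p under 0.05, where 8.16% and 5.81% of all tested genes were. None passed the adjusted threshold in edgeR without the block, 2 of 20 did with it (Cdkn1a and Bhlhe40, where 0.728% of all genes were called higher). With the block, 10 of 20 were higher at an unadjusted p under 0.05, against 12.3% of all genes. DESeq2 called 6 of the 16 that had an adjusted p (2.48% of all genes), and with the block 7 of 23 (6.77%). The median log2 fold change of the list was 1.79 against 0.06 for all tested genes, and 19 of the 20 were positive. By mouse, the median log2 ratio was 2.12, 0.88, 0.88 and 0.68. Without mouse 57, 9 of 20 were higher at an unadjusted p under 0.05, where 5.13% of all genes were. The collagens Col1a1, Col1a2 and Col3a1 and the matrix protein Postn, 4 genes of this list, were also on the list of fibroblast markers. These targets respond to other signals as well. The list was written by hand from general knowledge, but with earlier results of these data known. Its count at an unadjusted p was added after the data were seen. Fn1 and Snai1 of this list are also among the genes that the paper names for the E-cadLO cells of these libraries.

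Cdkn1a, which encodes the cell cycle inhibitor p21, was at 13.9, 10.4, 20.7 and 16.5 CPM in E-cadHI cells and at 48.8, 30.8, 89.3 and 50.8 CPM in E-cadLO cells. Bhlhe40, which encodes a transcriptional repressor, was at 115, 95.4, 116 and 86.8 CPM and at 234, 243, 272 and 162 CPM. In both genes every E-cadLO library lay above every E-cadHI library, as for 5 of the 20 tested targets and 3.90% of all tested genes. The log2 fold changes were 1.84 (SE 0.34, adjusted p = 0.204, and 0.0239 with the block) for Cdkn1a and 1.14 (SE 0.19, adjusted p = 0.186, and 0.0311 with the block) for Bhlhe40. Ctgf, which encodes a matricellular protein, was at 38.1, 48.4, 37.0 and 46.1 CPM and at 120, 208, 285 and 43.7 CPM, so the E-cadLO library of mouse 70 did not differ from E-cadHI cells (log2 fold change 1.95, SE 0.47, adjusted p = 0.253). Id3, which encodes an inhibitor of basic helix-loop-helix factors, was at 10.8, 10.3, 6.47 and 29.6 CPM and at 91.1, 29.0, 54.5 and 61.3 CPM. It was higher in every mouse, with groups that overlapped only through mice 58 and 70 (log2 fold change 2.05, SE 0.50, adjusted p = 0.255, and 1.8e-06 by DESeq2 with the block). The lower gene was Id2, a relative of Id3 that was named after its values were seen, with 586 to 894 CPM in E-cadHI and 184 to 562 CPM in E-cadLO libraries (log2 fold change −0.75, SE 0.32, adjusted p = 0.347). Its groups did not overlap, as for 4.20% of all tested genes in that direction. The markers of microglia and macrophages were higher in the same E-cadLO libraries, as were the sums of the fibroblast, oligodendrocyte, neuronal and endothelial lists. The part of all these cells in the levels of these targets was not tested.

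**Figure D5:**
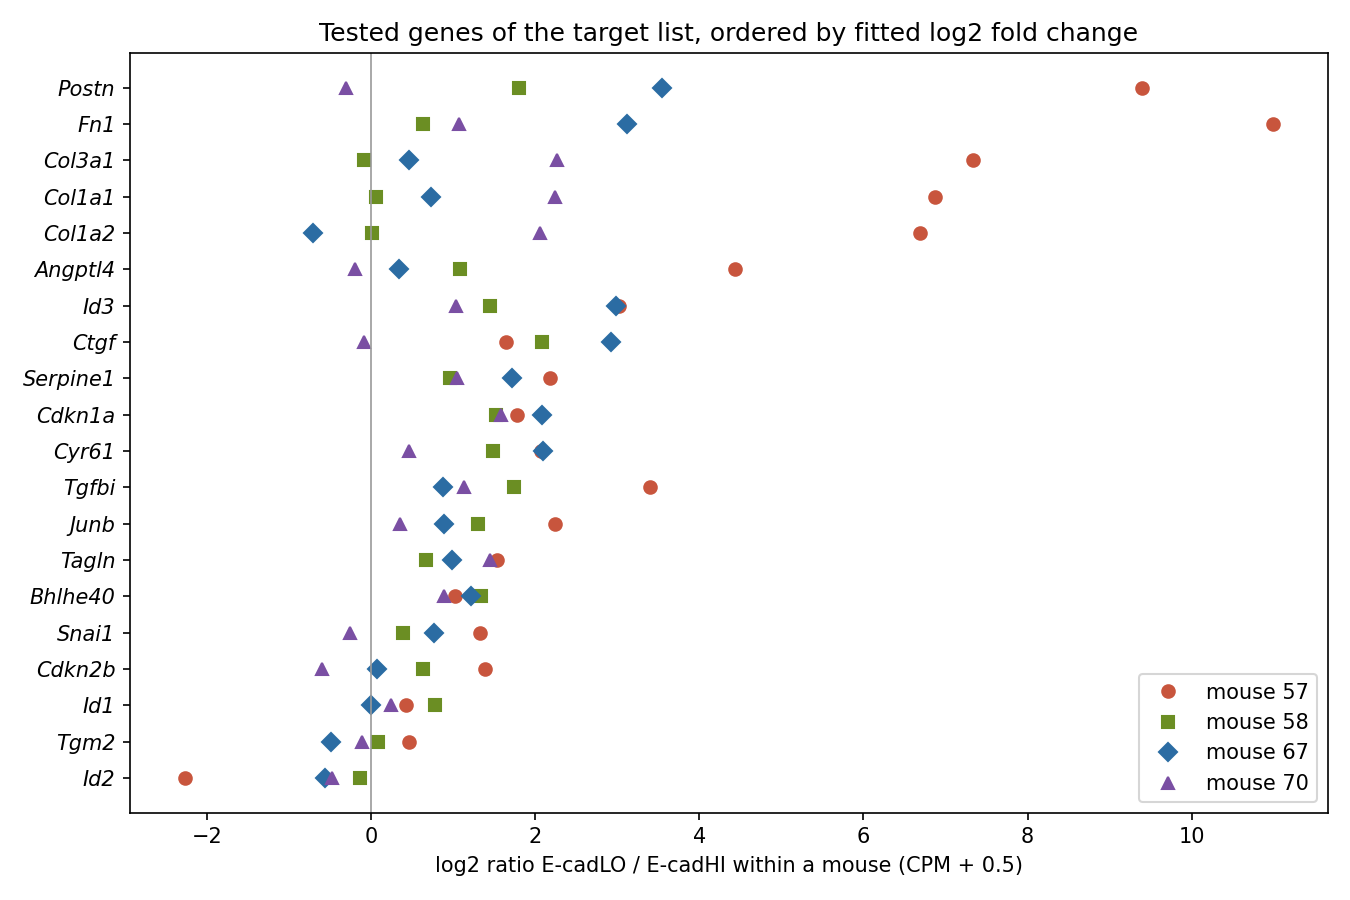
Log2 ratio of E-cadLO over E-cadHI within each mouse for the 20 tested genes of the target list, in the order of the fitted log2 fold change, with a symbol and color for each mouse and a gray line at 0. The ratios of Cdkn1a and Bhlhe40 are alike in the 4 mice, those of the collagens, Fn1 and Postn are far higher in mouse 57 than in the others, and Id2 is below 0 in all 4.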

How the data were processed

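Illumina TruSeq mRNA libraries of E-cadHI and E-cadLO cells from 4 mice were sequenced as single reads. The authors mapped the reads with HISAT2 2.1.0 to the mouse genome GRCm38 and deposited whole-number read counts per gene without normalization. The submitters' processing notes name HTSeq and the methods name Icount for counting, and the use of strand and the treatment of reads that match several genes are not given in the sources used here. The 365 entries without a gene identifier, with 0.0636 to 0.0954% of a library's counts, were left out, and 31719 of the 31894 genes were found in the GENCODE M21 annotation. Total counts were 9102781 to 15769200 per library, and intervals and floors hold for counting error alone, because reads that are PCR duplicates do not count separate molecules.

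Differences were tested with the quasi-likelihood test of edgeR 4.0.16 in R 4.3.3, after filterByExpr by group and TMM scaling, on all 8 libraries without a mouse term, and Benjamini-Hochberg adjustment over the 13598 genes tested. Because the replicate is the mouse, p-values without the block measure the spread between mice of one tumor line within each group and do not use the pairing. Those with the block measure the spread of the difference within a mouse. CPM use the TMM-scaled library size, and the log2 ratio of the 2 populations of a mouse had 0.5 added to each CPM. The alternatives were DESeq2 1.42.0, its size factors in edgeR, no filter, at least 10 counts in every library, the mouse as a replicate block, and each mouse or library left out. The block with each mouse left out, and the count of target genes at an unadjusted p, were added after the data were seen. The sample titles name the mouse of each library, so the 2 populations of a mouse come from the same animal. The correlation of their deviations from the group means was 0.381, 0.248, 0.272 and 0.692 in mice 57, 58, 67 and 70. No correlation between libraries of different mice was set beside these values. The 10 genes, the gene lists and the tests were chosen with earlier results of these data known. In each pathway list, genes past the adjusted threshold were to be named, and otherwise the 4 with the smallest unadjusted p. For each ligand and receptor, the 2 genes with the closest profile were named among genes with a profile SD of at least 0.5. The steps were tested on simulated data. Tables were made with Python 3.11 and pandas 2.3 and figures with matplotlib 3.10.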

Additional observations from a re-analysis of the deposited data

Results flagged for a closer look

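In 2 of the 50 groups of 4 values that were examined, 1 value lay far from the other 3 by Dixon's criterion at the 95% level, where chance gives about 1 in 20. Smad3 was at 71.9 CPM in the E-cadLO library of mouse 57, above the other 3 E-cadLO libraries at 26.5 to 32.8 CPM (gap over range 0.862). The within-mouse log2 ratio of Tgfb1 was 1.30 in mouse 67 and −0.95 to −0.68 in the other 3 mice (gap over range 0.878), at 3 counts in the E-cadHI and 19 counts in the E-cadLO library of that mouse.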

How the results depend on the processing

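Direction was kept by Tgfb2, Tgfb3, Tgfbr1, Smad2 and Smad7 in all 22 alternatives, by Tgfbr2, Smad3 and Smad4 in 19 and by Tgfbr3 in 16. Without mouse 57 the log2 fold change became −0.15 for Tgfbr2, −0.43 for Tgfbr3 and −0.21 for Smad3, without its E-cadLO library alone −0.17, −0.45 and −0.16, and with the block and without mouse 57 −0.18, −0.41 and −0.16. Tgfbr3 also turned with the replicate block, to −0.03 in edgeR and −0.01 in DESeq2, and to −0.00 with the block and without mouse 70. Smad4 turned to 0.05 without mouse 70, to 0.05 without its E-cadHI library and to 0.04 with the block and without mouse 70. Over all fits with 1 mouse or library left out, the highest or lowest values on the other side were 0.91 for Tgfbr2, 0.46 for Tgfbr3, 0.62 for Smad3 and −0.20 for Smad4. The cause of these changes was not tested.

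Under the replicate block by mouse, edgeR called 0 of the 9 tested genes higher and put 1 (Tgfb3) among those lower at an unadjusted p under 0.05, where it put 0 without the block, and it called 2 genes of the pathway lists higher. With the block, 10 of the 20 tested target genes were higher at an unadjusted p in place of 14, and 1 of the 10 other receptors (Bmpr1b) in place of 0. DESeq2 called 1 of the 10 genes and 7 pathway genes higher, and DESeq2 with the block called 2 and 10 and put 1 gene lower at an unadjusted p. Without the filter on low counts, 1 gene was lower at an unadjusted p and 1 pathway gene was called higher. With at least 10 counts in every library, 9 target genes were higher at an unadjusted p, 15 of the list being tested, where 14 were higher with all. With 1 mouse or library left out, from 0 to 1 of the 10 genes were called higher, from 1 to 2 were higher and from 0 to 2 lower at an unadjusted p, from 0 to 4 pathway genes were called higher (0 to 3 without the block), and from 8 to 15 target genes were higher at an unadjusted p. The share of all genes was not computed without the filter or with at least 10 counts in every library. Nor was it computed with a mouse or library left out, except without mouse 57 as a whole. The counts of those fits are therefore not set against all genes. As counts without length, Tgfb3 made up 66.1% of the ligand level in E-cadHI and 59.5% in E-cadLO cells and Tgfb2 33.7% and 40.2%. Tgfb1 is limited by its 1 to 19 counts per library, and whether its reads were assigned elsewhere was not tested.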
